A study of Mus musculus with 12 samples.

Results

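SR proteins and hnRNPs are the main families of RNA-binding proteins that decide which exons are kept in an mRNA. All protein-coding genes named *Srsf* with a number or *Hnrnp*, together with *Tra2a*, *Tra2b*, *Pnn*, *Ssb*, *Srrm1* and *Srrm2*, were taken from the count tables of a mouse neuron RNA-seq study. This gave 38 members of 27179 listed genes: 11 SR proteins, 5 SR-like proteins and speckle partners, the La protein gene *Ssb*, and 21 hnRNP genes. The mRNAs came from primary hippocampal neurons of newborn mice, kept in culture for 17 or 18 days on Transwell membranes. On these porous inserts the neurites (axons and dendrites) cross to the lower face while the somas stay above, so that each fraction was lysed separately. Cultures received the proteasome inhibitor MG132 at 10 µM for 7 h or its solvent DMSO (Ctrl). The 4 groups, Ctrl soma, MG132 soma, Ctrl neurites and MG132 neurites, had 3 polyA-selected libraries each. The labels give the strain as C57BL/6 for every library and name no allele or transgene, while the study's methods name FVB mice beside C57BL/6 for its hippocampal cultures.

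SR proteins bind exonic enhancers through RNA recognition motifs and recruit the spliceosome through their arginine-serine rich domains, whereas hnRNPs coat nascent transcripts and often oppose exon inclusion. SR proteins gather in nuclear speckles and are released by phosphorylation through CLK and SRPK kinases. Several members of both families shuttle to the cytoplasm, and in neurons some hnRNPs, hnRNP A2/B1 among them, bind mRNAs that are carried into dendrites. Many of these genes hold ultraconserved "poison" exons through which their own proteins lower the mRNA by nonsense-mediated decay. Counts per gene do not separate such isoforms, so each level below is the sum over all transcripts of a gene.

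Promoter stretches are shown for the 3 members whose RefSeq promoter window (250 bases before to 50 after a start, GRCm38.p6) held a heat shock element triplet or a cyclic AMP response element (motifs known from stress and activity responses). Each is written 5′ to 3′ on the gene's strand with the motif in capitals. The *Tra2b* stretch lies at chr16:22266194-22266223 (minus strand), with its motif starting at position -207 from the annotated start. The *Hnrnpa2b1* stretch lies at chr6:51469865-51469894 (minus strand), at position 11 of the first annotated start and -38 of the other. The *Tra2a* stretch lies at chr6:49264061-49264090 (minus strand), at position -27.
Tra2b: acggttctctaGAAGGTTCCAGAAacgagt
Hnrnpa2b1: gttagtgggggGAAGGTTCTAGAAaagcgg
Tra2a: ggtccgcccctTGACGTCAggcgccgggga

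The first pair holds the triplet GAANNTTCNNGAA, the form of a heat shock element, which is the site bound by heat shock factors. Both strands were searched in the windows of the 36 members that had one, and the triplet was found in *Tra2b* and *Hnrnpa2b1*, 5.56% of these members, against 0.662% of 27025 genes. The shorter inward pair GAANNTTC, which overlaps the triplet, was found in 5 members, 13.9%, against 9.04% of genes. The outward pair TTCNNGAA was found in the same 2 members as the triplet, against 9.60% of genes. The palindrome TGACGTCA of the cyclic AMP response element was found in *Tra2a* alone of the members, or 2.78%, against 2.03% of genes. The letters TGACNNNGC of the antioxidant response element, which nuclear factor E2 related proteins bind, occurred in 9 members, 25.0%, against 14% of genes. These matches describe letters in a window and were chosen with the responses known.

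Counted reads per library ranged from 4247610 to 22166347, and the members together took 0.226% to 0.604% of them. A transcript of 1 gene took 12.4% to 33.4% of a library and mitochondrial genes 9.78% to 29.2%, so levels are given as CPM scaled by TMM factors (0.567 to 1.44). All 12 genes of a proteasome inhibition check list rose with MG132 in both fractions. They were heat shock and proteasome subunit genes together with *Bag3*, *Hmox1* and *Sqstm1*. Of 6 nuclear noncoding RNAs, 4 were lower in Ctrl neurites than in Ctrl somas and 6 after MG132. They were still counted in neurites: their summed level was 5920 to 7100 CPM in Ctrl somas and 1850 to 4090 in Ctrl neurites. After MG132 the sums were 7620 to 9070 and 2080 to 4120. The part of nuclear RNA in the neurite results below was not tested. Of 9 mRNAs known from dendrites 1, *Map2*, was higher in neurites. The cultures held glia as well as neurons. The summed level of 9 astrocyte markers was 4880 to 6060 CPM in Ctrl somas and 21000 to 26100 in Ctrl neurites, and 2540 to 3330 and 9720 to 19900 after MG132. The 11 oligodendrocyte markers summed to 1660 to 7070 CPM in Ctrl somas and 5340 to 23300 in Ctrl neurites, and to 568 to 6410 and 3020 to 16700 after MG132. In neurites most of the astrocyte sum was *Gfap*, which averaged 1960 CPM in Ctrl somas and 17800 in Ctrl neurites. Of the 9 astrocyte markers 4 were called higher and 1 lower in Ctrl neurites (median log2 ratio 0.08) and 5 and 1 in MG132 neurites (0.77). Of 11 oligodendrocyte markers 1 was higher in Ctrl neurites (0.07) and 0 in MG132 neurites (-0.05), with 0 lower in either. With MG132, 7 of 9 astrocyte, 5 of 11 oligodendrocyte and 5 of 10 microglia markers fell in somas and 4, 5 and 9 in neurites, as did 6 and 4 of 8 tested fibroblast and endothelial markers, while 0 of 8 neuron markers changed in somas and 1 rose and 1 fell in neurites. The part of glial RNA in the results below was not tested, and in such bulk samples fewer cells of a type and less RNA per cell cannot be told apart.

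A gene was called when its adjusted p was under 0.05 by edgeR's quasi-likelihood test, adjusted by Benjamini-Hochberg over the 14185 genes that passed a filter on low counts. Of the members 37 passed. *Hnrnpa1l2-ps2*, a relative of *Hnrnpa1* whose symbol names it a pseudogene, failed with 0 to 4 counts per library. No source states that the 3 libraries of a group came from separate animals, so the p-values measure the spread between these libraries, whose names carry different dates. Per kilobase of exon and averaged over the 4 groups, the members spanned 1.77 CPM per kilobase (*Srsf12*) to 232 (*Hnrnpa2b1*). *Ssb* (86.3) and *Hnrnpab* (76.2) came next to *Hnrnpa2b1*. In 11 of 37 members over 20% of the 75-base windows recur in transcripts of other genes, so that their counts are uncertain: *Srsf2*, *Srsf3*, *Srsf4*, *Srsf5*, *Hnrnpa1*, *Hnrnpa3*, *Hnrnpab*, *Hnrnpf*, *Hnrnph2*, *Hnrnpk* and *Hnrnpm*. The highest shares were 63.8% in *Srsf4* and 61.7% in *Hnrnpf*, and *Hnrnpm* shares 29.7% of its exon bases with *March2* on the same strand.

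MG132 raised splicing factor mRNAs in both fractions. In somas 16 of 37 members rose and 0 fell, where 15.5% of all tested genes rose and 11.9% fell. In neurites 21 rose and 0 fell, where 14.7% of tested genes rose and 12.3% fell. The median log2 fold change of the members was 0.47 in somas and 0.62 in neurites, against -0.07 and -0.16 over all tested genes. With an adjusted p under 0.01 and a change over 1.7-fold, 9 members were higher and 0 lower in somas (all genes 9.00% and 5.58%) and 17 higher and 0 lower in neurites (9.25% and 5.44%). On total counts without TMM factors 4 members were called higher in somas and 11 in neurites, with 0 lower in either, where 7.56% and 6.63% of all genes were called higher, so that in somas the share of members (4 of 37) came nearer to that of all genes. The median of all genes then moved to -0.10 and -0.30. Without Ctrl soma replicate 1, 10 members were called higher in somas, where 11.3% of all genes were. Members had a median standard error of 0.19, against 0.36 over all genes, so a given change of theirs was called more readily. Among genes with at least 10 counts in every library, 14 members were higher and 1 lower in somas (19.7% and 17.2% of those genes). In neurites 19 were higher and 1 lower (18.6% and 19.4%). The members called in both fractions numbered 15, which is 93.8% of the somas list and 71.4% of the neurites list, where over all tested genes the 1590 called in both were 72.2% and 76.3%. The somas and neurites lists rest on separate libraries, but those of a number were taken as a pair.

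**Figure D1:**
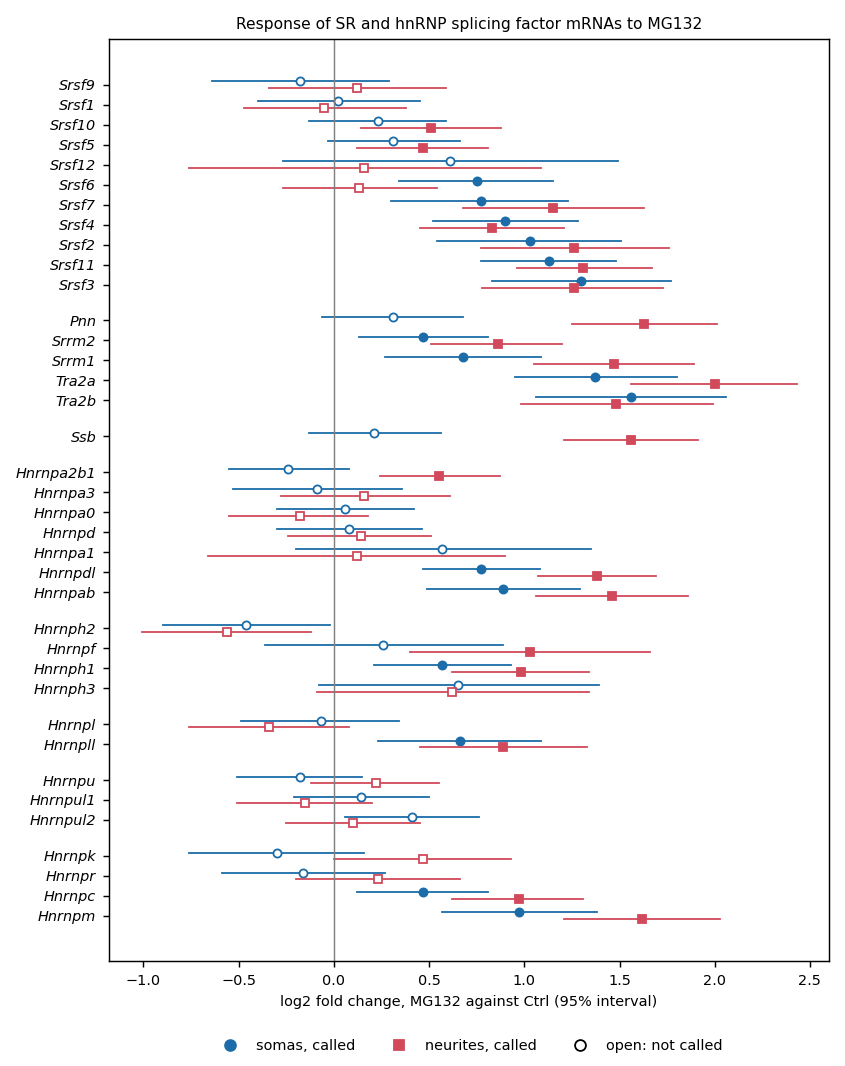
Log2 fold change of each tested member, MG132 against Ctrl, in somas (circles) and neurites (squares), grouped by family, with 95% intervals from the edgeR model. Filled symbols are called. All called members lie to the right of 0, 16 in somas and 21 in neurites, and the lowest value is -0.56 for *Hnrnph2* in neurites.

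The SR-like activators *Tra2a* and *Tra2b* rose in both fractions, with the largest changes of the members in somas, while in neurites *Pnn*, *Hnrnpm* and *Ssb* came between them. They encode the mammalian Transformer 2 proteins, which promote inclusion of exons rich in GAA repeats. *Tra2b* (chr16:22244552-22266005) measured 20.1, 18.5 and 15.2 CPM in Ctrl somas and 53.0, 45.6 and 60.2 in MG132 somas, and 33.0, 27.3 and 17.8 in Ctrl neurites and 60.4, 83.7 and 72.5 in MG132 neurites. Every treated library stood above every control of its fraction. The log2 fold change was 1.56 ± 0.24 (SE) in somas (edgeR adjusted p = 2.60e-04) and 1.48 ± 0.24 in neurites (edgeR adjusted p = 3.42e-04). *Tra2a* (chr6:49243921-49264248) measured 48.4, 50.1 and 47.6 CPM in Ctrl somas and 134, 102 and 141 in MG132 somas, and 35.9, 58.2 and 35.9 in Ctrl neurites and 172, 182 and 168 in MG132 neurites. These groups did not overlap either. Its rise of 3.99-fold in neurites (log2 fold change ± SE 2.0 ± 0.2, edgeR adjusted p = 9.72e-06) was the largest of any member, and in somas it was 1.37 ± 0.20 (edgeR adjusted p = 2.02e-04).

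Of 11 SR proteins, 6 rose in somas and 7 in neurites, where 15.5% and 14.7% of all tested genes rose. *Srsf3*, the smallest SR protein and a partner of the export receptor NXF1, measured 37.1, 49.96 and 36.6 CPM in Ctrl somas and 109, 89.3 and 106 in MG132 somas, then 39.4, 76.2 and 48.5 in Ctrl neurites and 131, 137 and 127 in MG132 neurites. Its log2 fold change was 1.30 ± 0.22 in somas (edgeR adjusted p = 6.30e-04) and 1.26 ± 0.22 in neurites (edgeR adjusted p = 7.46e-04), with groups apart in both. *Srsf11*, an SR protein that binds U2AF, measured 75.1, 78.9 and 98.4 CPM in Ctrl somas, 188, 160 and 202 in MG132 somas, 110, 93.6 and 112 in Ctrl neurites and 285.98, 252.35 and 246.7 in MG132 neurites. Its fold changes were 1.13 ± 0.17 and 1.31 ± 0.17 on the log2 scale (edgeR adjusted p = 2.26e-04 and 5.50e-05).

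*Srsf2*, also called SC35 and a classical speckle marker, measured 62.5, 54.3 and 49.8 CPM in Ctrl somas, 124, 108 and 108 in MG132 somas, 33.8, 59.4 and 34.6 in Ctrl neurites and 113, 118 and 77.0 in MG132 neurites. The treated groups stayed above the controls, although the neurite libraries spread widely, and the log2 fold changes were 1.03 ± 0.23 and 1.26 ± 0.23 (edgeR adjusted p = 0.00394 and 9.88e-04). Of its exon bases 39.4% lie opposite *Mettl23* and *Mfsd11*, whose reads cannot be told apart from its own without a strand setting. *Srsf4* measured 17.2, 20.9 and 16.5 CPM in Ctrl somas, 36.2, 29.1 and 36.1 in MG132 somas, 39.9, 40.1 and 39.5 in Ctrl neurites and 71.8, 66.6 and 74.0 in MG132 neurites. It stood higher in neurites than in somas in both conditions and rose by 0.90 ± 0.18 and 0.83 ± 0.18 (edgeR adjusted p = 0.00188 and 0.00293). Of its exon bases 67.9% overlap the antisense gene *Gm12992*, and since no strand setting is stated, reads of the pair cannot be told apart. *Srsf7* also rose in both fractions, by 0.77 and 1.15, while *Srsf5* (0.47) and *Srsf10* (0.51) were called in neurites and not in somas (0.31 and 0.23).

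The remaining SR proteins behaved otherwise. *Srsf6* measured 68.6, 79.0 and 60.4 CPM in Ctrl somas and 122, 104 and 123 in MG132 somas, a rise of 0.75 ± 0.19 (edgeR adjusted p = 0.00923). In neurites it measured 132, 127 and 99.3 CPM in Ctrl and 158, 134 and 102 with MG132, which overlap, with a log2 fold change of 0.13 ± 0.19 (edgeR adjusted p = 0.637). It was called in somas and not in neurites, alone among the members. *Srsf1*, the prototype SR protein SF2/ASF, had log2 fold changes of 0.02 ± 0.20 and -0.05 ± 0.20, with 95% intervals of -0.40 to 0.45 and -0.47 to 0.38. *Srsf9* (-0.18 and 0.12) and the low-level *Srsf12* (0.61 and 0.16) were not called.

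The matrix proteins *Srrm1* and *Srrm2*, coactivators that scaffold speckles and bridge SR proteins, rose in both fractions. *Srrm1* measured 70.1, 81.4 and 98.0 CPM in Ctrl somas, 135, 132 and 132 in MG132 somas, 39.9, 53.5 and 65.7 in Ctrl neurites and 129, 146 and 168 in MG132 neurites. All treated libraries were above their controls, and the log2 fold changes were 0.68 ± 0.19 and 1.47 ± 0.20 (edgeR adjusted p = 0.0167 and 8.12e-05). *Srrm2* measured 357, 422 and 418 CPM in Ctrl somas, 569, 566 and 524 in MG132 somas, 198, 197 and 168 in Ctrl neurites and 309, 318 and 393 in MG132 neurites. It rose by 0.47 ± 0.16 and 0.86 ± 0.16 (edgeR adjusted p = 0.0396 and 0.00118), and its neurite libraries stayed below the soma libraries of the same treatment.

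Among the hnRNPs of the A/B and D type, *Hnrnpab* and *Hnrnpdl* rose in both fractions and *Hnrnpa2b1* in neurites. *Hnrnpab*, the CArG-box binding factor and a component of neuronal RNA granules, measured 80.6, 92.6 and 92.2 CPM in Ctrl somas, 136, 164 and 191 in MG132 somas, 102, 154 and 152 in Ctrl neurites and 355, 373 and 399 in MG132 neurites. No treated library reached down to its controls, and the log2 fold changes were 0.89 ± 0.19 and 1.46 ± 0.19 (edgeR adjusted p = 0.00287 and 6.22e-05). *Phykpl* lies opposite 32.2% of its exon bases, with the same limit as for *Srsf2*. *Hnrnpdl*, a relative of the AU-rich element binder hnRNP D, measured 75.4, 74.9 and 66.3 CPM in Ctrl somas, 126, 111 and 132 in MG132 somas, 88.5, 89.6 and 91.2 in Ctrl neurites and 229.7, 228.4 and 244.7 in MG132 neurites. Its libraries were tightly grouped, and it rose by 0.77 ± 0.14 and 1.38 ± 0.15 (edgeR adjusted p = 0.00120 and 1.24e-05). *Hnrnpa0*, *Hnrnpa1*, *Hnrnpa3* and *Hnrnpd* were not called in either fraction, with values from -0.18 to 0.57.

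*Hnrnpa2b1* (Entrez 53379, chr6:51460434-51470048) encodes a reader of m6A-marked and granule-bound RNAs, in which inherited mutations cause motor neuron and muscle disease. It measured 363, 349 and 349 CPM in Ctrl somas and 299, 287 and 313 in MG132 somas. The treated libraries were all lower, but the log2 fold change of -0.24 ± 0.15 was not called (95% interval -0.55 to 0.08, edgeR adjusted p = 0.256). In neurites it measured 432, 495 and 431 CPM in Ctrl and 732, 628 and 632 with MG132. Here all treated libraries were higher, by 0.55 ± 0.15 (1.47-fold, edgeR adjusted p = 0.0125). That call was lost without MG132 neurites replicate 1 (log2 fold change 0.48) and on total counts (0.39). None of its windows of 75 bases occurs in another annotated transcript.

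Apart from the U type, each group of the other hnRNPs held genes that were called and genes that were not. *Hnrnpm*, a regulator of exon skipping, measured 64.3, 67.7 and 46.9 CPM in Ctrl somas, 107, 123 and 122 in MG132 somas, 67.4, 103 and 89.9 in Ctrl neurites and 248, 279 and 276 in MG132 neurites. Its log2 fold changes were 0.97 ± 0.19 and 1.62 ± 0.19 (edgeR adjusted p = 0.00154 and 3.05e-05), with no overlap between treated and control libraries. *Hnrnpc*, whose tetramers measure out nascent RNA, rose by 0.47 and 0.97, the F/H protein *Hnrnph1* by 0.57 and 0.98, and *Hnrnpll*, which silences exons in lymphocytes, by 0.66 and 0.89. *Hnrnpf*, a binder of G runs, rose in neurites (1.03) and was not called in somas (0.26). The 3 genes of the U type were called in neither fraction, with *Hnrnpu*, a nuclear scaffold protein, at -0.18 and 0.22. With the replicate number as a block, *Hnrnpul2* was called higher in somas (0.41, edgeR adjusted p = 0.0199) and *Hnrnph2* lower in neurites (-0.57, edgeR adjusted p = 0.0312). In all, 15 members were called in neither fraction, and their fold changes ran from -0.56 to 0.65.

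**Figure D2:**
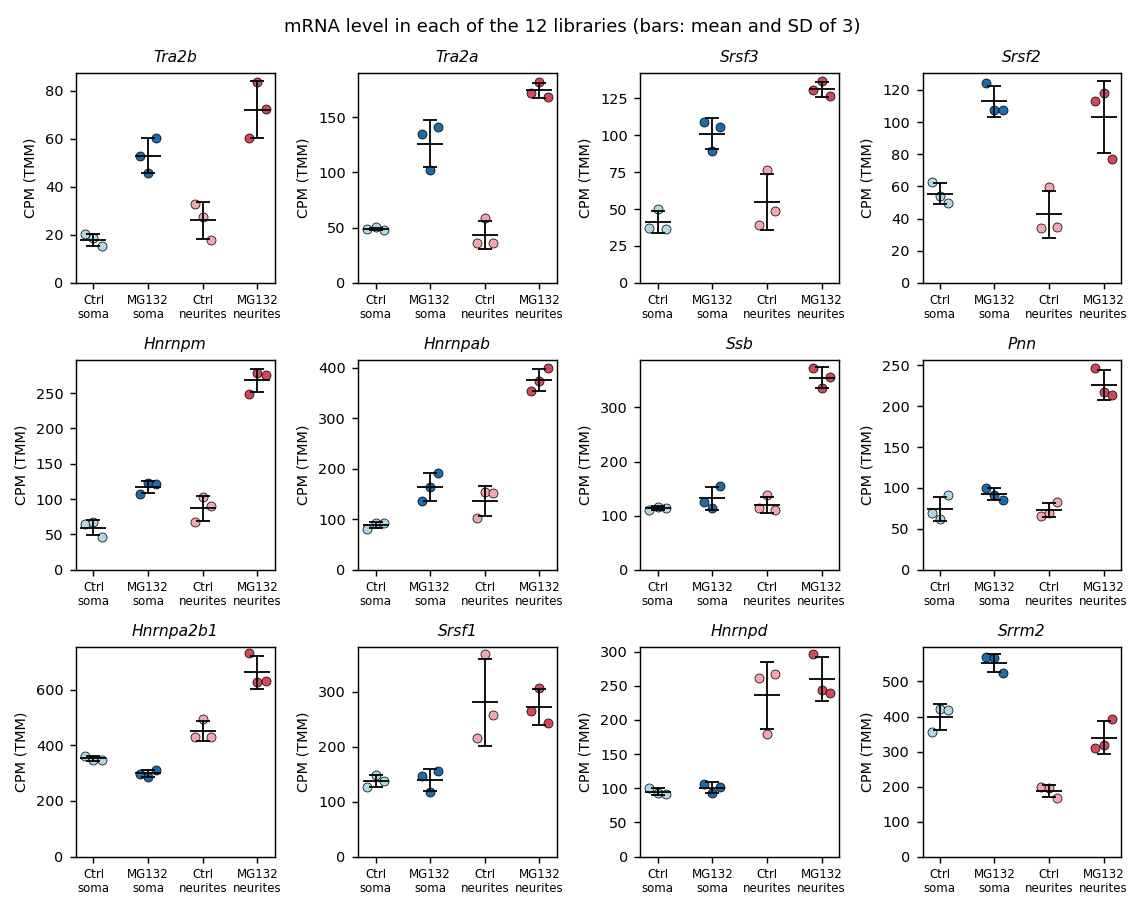
Level of 12 members in each library in CPM with TMM scaling, from 0, by group (points: libraries; bars: mean and SD of 3). *Tra2a*, *Tra2b*, *Srsf2* and *Srsf3* stand higher with MG132 in both fractions, *Ssb* and *Pnn* in neurites, and *Srsf1* and *Hnrnpd* part the fractions more than the treatments. *Srrm2* stands lower in neurites than in somas of the same treatment and higher with MG132 in both fractions.

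*Ssb* and *Pnn* differed most between fractions in their response. *Ssb* (chr2:69861562-69871846) encodes the La protein, which binds the oligouridine ends of new polymerase III transcripts. It measured 110, 116 and 115 CPM in Ctrl somas and 124, 115 and 155 in MG132 somas, which overlap, and 113, 137 and 111 in Ctrl neurites and 374, 336 and 356 in MG132 neurites. The log2 fold change was 0.21 ± 0.16 in somas (edgeR adjusted p = 0.350) and 1.56 ± 0.16 in neurites (2.95-fold, edgeR adjusted p = 1.24e-05). *Pnn* (chr12:59066919-59074017) encodes pinin, a speckle and desmosome-linked protein that joins the exon junction complex. It measured 69.3, 62.4 and 91.2 CPM in Ctrl somas and 99.6, 91.5 and 84.9 in MG132 somas, and 65.8, 69.9 and 82.8 in Ctrl neurites and 247.02, 216.81 and 214.06 in MG132 neurites. Here too the soma groups overlapped (0.31 ± 0.17, edgeR adjusted p = 0.206) and the neurite groups were far apart (1.63 ± 0.18, edgeR adjusted p = 1.61e-05).

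The difference of the MG132 response, neurites minus somas, was tested in the same model. No gene of the 14185 was called in either direction (0% higher and 0% lower), the smallest adjusted p was 0.328, and 1000 genes had an unadjusted p under 0.05. Of the members, 10 had a larger and 1 a smaller response in neurites at that unadjusted level, and the median difference of all members was 0.25 against -0.04 over all tested genes. *Ssb* had a difference of 1.34 ± 0.23 (unadjusted p = 2.98e-05, edgeR adjusted p = 0.328), with 1.54, 1.30 and 1.25 in the same-numbered library sets. *Pnn* had 1.32 ± 0.25 (unadjusted p = 7.99e-05, edgeR adjusted p = 0.328), with 1.38, 1.08 and 1.47. *Hnrnpa2b1* had 0.79 ± 0.21 (unadjusted p = 0.00191, edgeR adjusted p = 0.426), with 1.04, 0.62 and 0.71. All of these sets pointed toward a larger response in neurites. *Ssb*, *Pnn* and *Hnrnpa2b1* had the smallest unadjusted p of the members in this test, so agreement among their sets is not separate evidence.

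The test of this difference depended on the model. With the replicate number as a block 0.331% of tested genes were called higher and 0.303% lower, and *Ssb* (edgeR adjusted p = 0.00390) and *Pnn* (edgeR adjusted p = 0.00517) were the 2 members called, while *Hnrnpa2b1* had an edgeR adjusted p of 0.0502. DESeq2, which gave an adjusted p to 4892 genes, called 0.777% of them higher and 0.409% lower. It called 3 members higher and 0 lower: *Ssb* (DESeq2 adjusted p = 4.39e-06), *Pnn* (9.97e-04) and *Hnrnpa2b1* (0.00539). Over the 75-base windows of *Ssb*, 20% recur in transcripts of other genes, and 26.3% of its exon bases lie under genes of the opposite strand, whereas *Pnn* shares none. *Srsf6* was the 1 member with a smaller response in neurites at an unadjusted p under 0.05 (-0.61 ± 0.27, unadjusted p = 0.0374, edgeR adjusted p = 0.674).

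**Figure D3:**
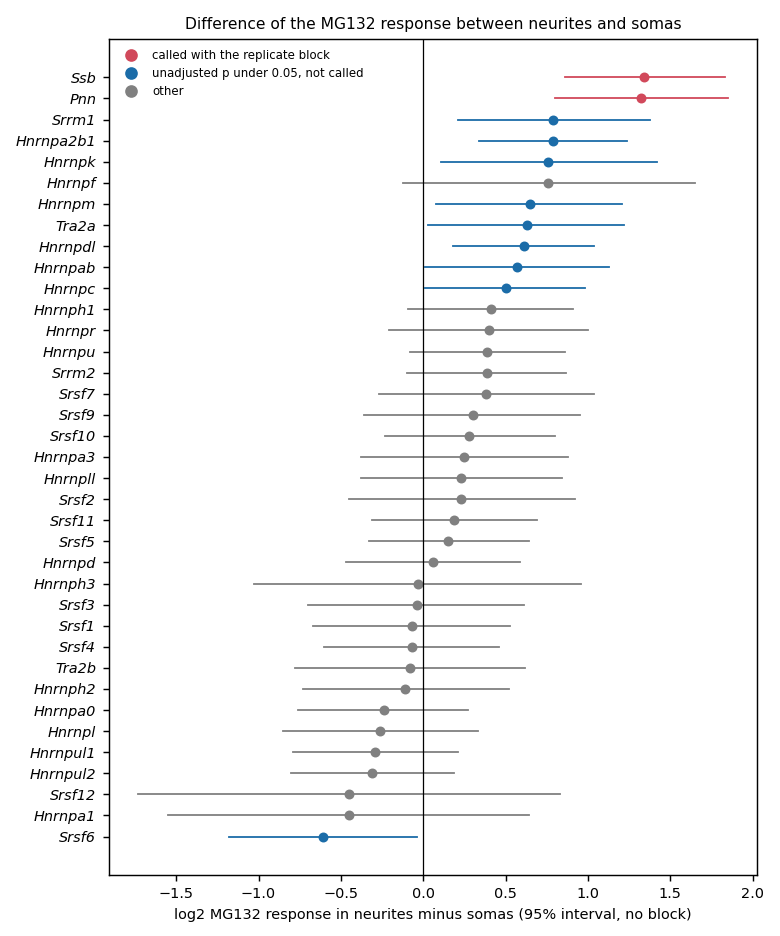
Log2 MG132 response in neurites minus that in somas for each tested member, with 95% intervals from the edgeR model without a block. *Ssb* (1.34) and *Pnn* (1.32), in red, were called with the replicate block; the blue members had an unadjusted p under 0.05 and were not called.

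Neurites were also compared with somas within each treatment. In Ctrl cultures 10 members were called higher in neurites and 2 lower, where 10.2% of tested genes were higher and 4.65% lower, and in MG132 cultures 18 were higher and 1 lower, where 11.4% were higher and 6.35% lower. This direction rests on the TMM scaling: on total counts 0 members were higher and 4 lower in each treatment, where 2.28% of all genes were higher and 19.3% lower in Ctrl and 2.11% and 30.6% in MG132, and the median of all genes moved from -0.04 to -0.70 in Ctrl and from -0.08 to -0.86 in MG132. The median of the members lay above that of all genes under both scalings, at 0.32 with TMM and -0.34 on total counts in Ctrl, and at 0.47 and -0.32 in MG132. With an adjusted p under 0.01 and over 1.7-fold, 6 were higher and 1 lower in Ctrl (6.15% and 1.28% of genes) and 14 and 0 in MG132 (6.92% and 2.08%). Without Ctrl soma replicate 3 the Ctrl comparison had 5 members higher and 1 lower (6.60% and 3.51% of genes). Without Ctrl soma replicate 1 it had 6 higher (6.67% of genes), and without Ctrl neurites replicate 1 it had 1 lower (4.16% of genes). The comparisons in Ctrl and MG132 share no library. The ratios below use TMM factors, and each is a ratio between fractions whose glial marker sums also differed.

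Of the hnRNPs of the A/B and D type, *Hnrnpa3*, *Hnrnpab* and *Hnrnpd* were called higher in neurites in both treatments. *Hnrnpd* (AUF1, which binds AU-rich mRNAs) measured 100.4, 92.9 and 92.1 CPM in Ctrl somas, 262, 179 and 268 in Ctrl neurites, 107, 92.3 and 103 in MG132 somas and 296.5, 243.9 and 239.6 in MG132 neurites. The fractions were apart in both treatments, with log2 ratios of 1.31 ± 0.18 in Ctrl and 1.37 ± 0.18 in MG132 (edgeR adjusted p = 1.21e-04 and 1.01e-04), and 0.61 and 0.56 on total counts. *Hnrnpa3*, which binds the same RNA trafficking element as hnRNP A2, measured 28.0, 23.0 and 24.0 CPM in Ctrl somas, 57.1, 50.6 and 69.5 in Ctrl neurites, 21.0, 19.8 and 29.5 in MG132 somas and 76.1, 65.4 and 56.9 in MG132 neurites. Its ratios were 1.24 ± 0.21 and 1.49 ± 0.21 (edgeR adjusted p = 8.75e-04 and 2.07e-04), and 27.9% of its windows recur in other genes, many of them pseudogenes.

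*Hnrnpa2b1* had a log2 ratio of 0.36 ± 0.15 in Ctrl (edgeR adjusted p = 0.128), which turned to -0.30 on total counts, and of 1.15 ± 0.15 in MG132 (2.22-fold, edgeR adjusted p = 1.01e-04), which was 0.35 on total counts. Its MG132 soma libraries, at 287 to 313 CPM, and its MG132 neurite libraries, at 628 to 732, bounded its whole range. *Hnrnpab* had ratios of 0.63 ± 0.19 and 1.2 ± 0.19 (edgeR adjusted p = 0.0343 and 4.44e-04). Its Ctrl call, like that of *Hnrnpul1* (0.61), did not hold when any Ctrl soma library or Ctrl neurites replicate 3 was left out. *Hnrnpm* (0.54, then 1.19), *Ssb* (0.09, then 1.43) and *Pnn* (-0.03, then 1.30) were called in MG132 and not in Ctrl cultures, and the test of that change is the test of the response difference given above. With the block *Hnrnpm* (0.53, edgeR adjusted p = 0.0163), *Hnrnpc* (0.47, 0.0147) and *Srsf9* (0.62, 0.0490) were also called higher in Ctrl neurites, and *Hnrnpl* lower in MG132 neurites (-0.46, 0.0341).

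*Hnrnph3* had the largest ratio in Ctrl at a low level. It measured 4.97, 5.21 and 2.87 CPM in Ctrl somas, 14.3, 11.3 and 11.1 in Ctrl neurites, 8.50, 7.53 and 4.79 in MG132 somas and 24.2, 14.3 and 18.1 in MG132 neurites. The ratios of 1.48 ± 0.35 and 1.44 ± 0.34 (edgeR adjusted p = 0.00946 and 0.00830) came from groups that did not overlap, and the Ctrl call was lost without Ctrl soma replicate 3 (1.18). *Hnrnpul2*, a DNA damage response protein, measured 137, 115 and 146 CPM in Ctrl somas, 244.998, 246.759 and 321.673 in Ctrl neurites, 180, 171 and 178 in MG132 somas and 311, 261 and 301 in MG132 neurites. Its ratios were 1.03 ± 0.17 and 0.72 ± 0.16 (edgeR adjusted p = 5.40e-04 and 0.00693). *Hnrnpr*, a binder of axonal β-actin mRNA, measured 39.3, 43.2 and 31.2 CPM in Ctrl somas, 58.7, 64.7 and 66.4 in Ctrl neurites, 25.9, 32.3 and 43.1 in MG132 somas and 74.1, 70.0 and 79.1 in MG132 neurites. Its ratio of 0.74 ± 0.20 in Ctrl (edgeR adjusted p = 0.0223) was 0.07 on total counts and lost its call without Ctrl soma replicate 1 or 3 (0.70 and 0.55) or Ctrl neurites replicate 2 or 3 (0.72 and 0.63), while in MG132 it was 1.13 ± 0.20 (edgeR adjusted p = 0.00132).

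Of the SR proteins, *Srsf1*, *Srsf4* and *Srsf6* were called higher in Ctrl neurites. *Srsf1* measured 128, 148 and 138 CPM in Ctrl somas, 216, 369 and 258 in Ctrl neurites, 146, 118 and 156 in MG132 somas and 265.7, 307.5 and 243.15 in MG132 neurites. It kept the fractions apart in both treatments, with ratios of 1.03 ± 0.20 and 0.96 ± 0.20 (edgeR adjusted p = 0.00256 and 0.00397). *Srsf4* had 1.13 ± 0.18 and 1.06 ± 0.18 (edgeR adjusted p = 4.82e-04 and 7.44e-04). *Srsf6* had 0.79 ± 0.19 in Ctrl (edgeR adjusted p = 0.0114), lost without Ctrl soma replicate 1 (0.72) or 3 (0.62), and 0.17 ± 0.19 in MG132 (edgeR adjusted p = 0.578). The speckle scaffolds were the members lower in neurites: *Srrm2* had a ratio of -1.09 ± 0.16 in Ctrl and -0.70 ± 0.16 in MG132 (edgeR adjusted p = 2.61e-04 and 0.00690), and *Srrm1* had -0.64 ± 0.19 in Ctrl (edgeR adjusted p = 0.0366), a call lost without Ctrl neurites replicate 1 or 2 (-0.48 and -0.65) or Ctrl soma replicate 3 (-0.58), and 0.15 ± 0.19 in MG132 (edgeR adjusted p = 0.645). Without Ctrl neurites replicate 2 the lower count was still 2 (3.70% of genes were lower), so a member not named here was then called lower beside *Srrm2*. *Tra2a* and *Tra2b* were called in neither treatment, with ratios from -0.16 to 0.53.

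**Figure D4:**
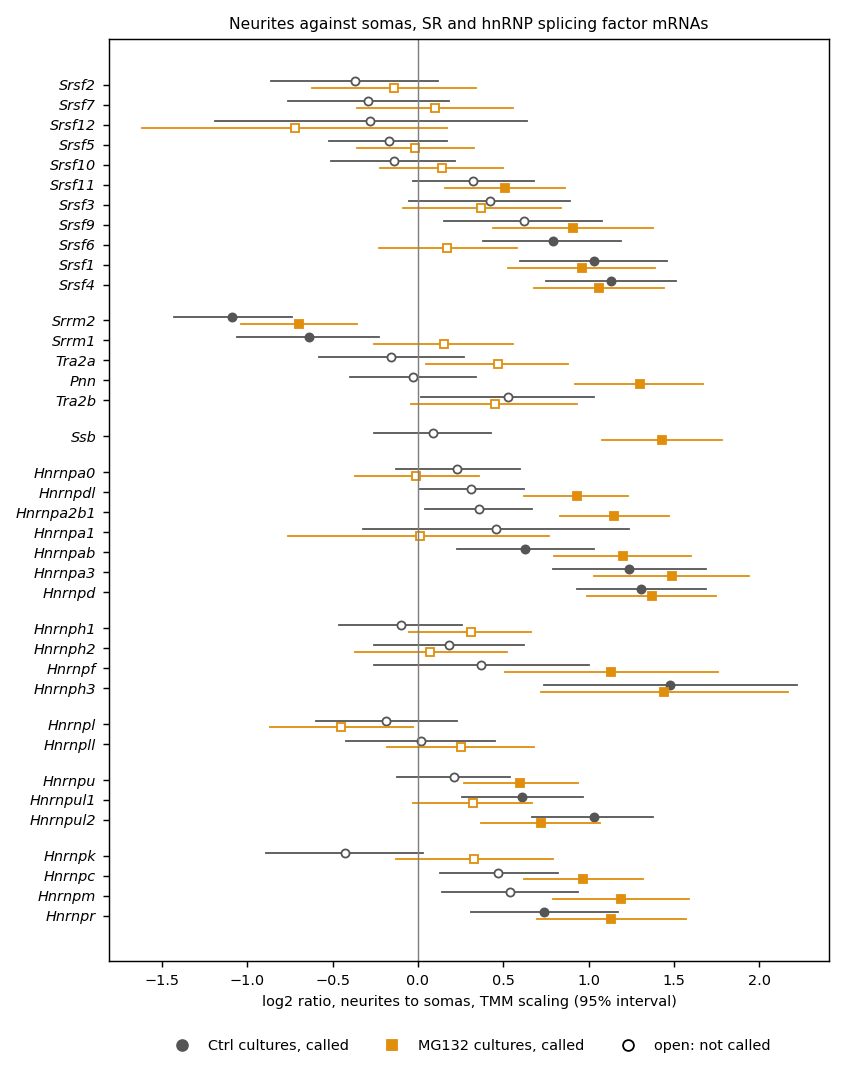
Log2 ratio of neurites to somas for each tested member with TMM scaling, in Ctrl (circles) and MG132 cultures (squares), with 95% intervals. Filled symbols are called, 10 higher and 2 lower in Ctrl and 18 higher and 1 lower in MG132; on total counts 0 were higher and 4 lower in each.

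Other genes of the splicing pathway were counted by list. With MG132, 15.5% of all tested genes rose and 11.9% fell in somas, and 14.7% and 12.3% in neurites. Of 30 SR-related and nuclear speckle proteins, 19 rose and 1 fell with MG132 in somas and 21 rose and 1 fell in neurites, the largest changes being *Srrm4* (1.44), *Srek1* (1.24), *Nktr* (1.24) and *Luc7l* (1.22) in somas and *Rbm39* (1.82), *Luc7l* (1.68), *Rsrc2* (1.58) and *Srrt* (1.54) in neurites. *Srrm4* encodes the neural microexon regulator nSR100, and *Rbm39* a U2AF-related splicing factor. Of 14 kinases and phosphatases that act on SR proteins, 4 rose in somas (28.6%) and 7 in neurites (50%), and 0 fell. These included *Clk3* (1.16 in somas), *Clk4* (1.05 and 1.49), *Dyrk1a* (1.03 and 1.04) and *Clk2* (0.61 in somas), and in neurites also the phosphatase gene *Ppm1g* (1.34) and *Prpf4b* (1.21).

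Of 36 tested genes of spliceosomal snRNP proteins, 11 rose in somas and 17 in neurites, and 0 fell. These were 30.6% and 47.2%, beside 15.5% and 14.7% of all tested genes. The branch point binder *Sf1* rose by 1.29 and 1.67, the tri-snRNP genes *Prpf6* by 1.31 and 1.44 and *Prpf3* by 1.10 and 1.48, *Snrnp40* by 1.35 in somas and *Snrpa1* by 1.61 in neurites. Of 15 genes of nonsense-mediated decay and the exon junction complex, 9 rose in somas (60%) and 8 in neurites (53.3%), and 0 fell. *Smg1*, the kinase of UPF1, rose by 1.77 and 1.68, *Smg8* by 1.71 and 1.74 and *Smg5* by 1.62 and 1.41. Of 16 nuclear import and export genes, 5 rose in somas (31.2%) and 8 in neurites (50%), and 0 fell. The mRNA export receptor *Nxf1* rose by 1.02 and 1.06 and the SR protein importin *Tnpo3* by 1.02 in neurites.

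Of the 45 hnRNP-like and other splicing regulators 7 were higher and 1 lower in somas, or 15.6% higher beside 15.5% of all tested genes, and 13 were higher and 5 lower in neurites, or 28.9% and 11.1% beside 14.7% and 12.3%. *Taf15*, which encodes an RNA-binding protein, rose by 1.52 and 1.62, *Elavl1* by 1.27 in somas, *Fubp1* by 1.51 in neurites, *Pcbp3* by 1.16 and 1.43 and *Rbm4* by 1.14 in somas, while the neuronal regulator *Nova2* fell by 1.37 in neurites. Between fractions with TMM scaling, 10.2% of all tested genes were higher and 4.65% lower in Ctrl neurites and 11.4% and 6.35% in MG132 neurites. The list of speckle proteins had 6 higher and 3 lower genes in Ctrl neurites and 13 and 5 in MG132 neurites, the kinases 1 and 1, then 2 and 1, the snRNP proteins 2 and 0, then 7 and 0, the regulators 5 and 2, then 7 and 4, the import and export genes 2 and 1, then 2 and 0, and the decay and junction genes 3 and 0, then 4 and 0. The shares called higher in Ctrl were 7.14% of the kinases, 5.56% of the snRNP proteins and 11.1% of the regulators, which lie below or near that of all genes.

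**Figure D5:**
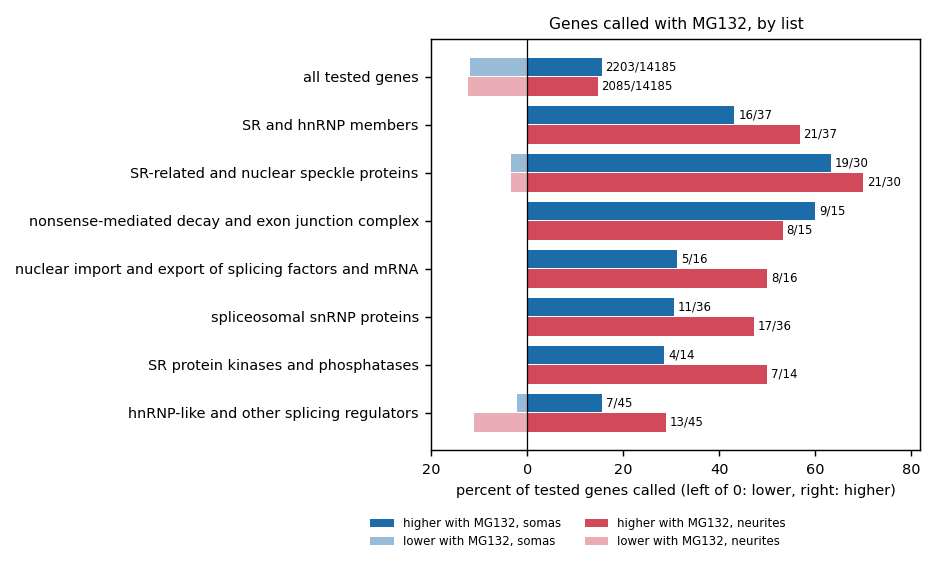
Percent of the tested genes of each list called higher (right of 0) or lower (left of 0) with MG132 in somas (blue) and neurites (red), with the number called higher of those tested. All tested genes have 15.5% and 14.7% higher, and the SR and hnRNP members 43.2% and 56.8%.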

How the data were processed

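RNA of the 12 libraries was polyA selected. The authors trimmed single-end reads with Trimmomatic 0.38.0, aligned them to mm10 with STAR and assigned them to genes with featureCounts 2.0.1, all by default settings apart from trimming, and deposited the raw counts without normalization. The members, pathway lists, promoter motifs and tests were chosen with earlier results of these data known.

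Symbols came from RefSeq (25275 of 27179 identifiers), and 1 gene that matched by name but is not protein coding was left out. Coordinates and exon lengths came from GENCODE M21 (GRCm38). In R 4.3.3, edgeR 4.0.16 filtered genes with filterByExpr, scaled libraries by TMM and fitted 1 quasi-likelihood model with 4 group means. P-values were adjusted over 14185 genes by Benjamini-Hochberg, and each standard error was derived from the F statistic. The median standard error was 0.19 for members and 0.36 over all genes.

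Library values are given for the called members with the largest changes (at most 8 per direction and comparison), for *Hnrnpa2b1*, for the 3 members highest per length and, where none was called, for the 3 with the smallest p. At most 4 called genes of a pathway list are named. All groups use replicate numbers 1, 2 and 3, and library names carry 1 date per number except in 1 MG132 neurites library, so numbers were taken as pairs. Deviations of same-numbered libraries correlated by 0.0616 to 0.221 (16 of 18 over 0.1). Alternatives were DESeq2 1.42.0, its size factors, total counts, library sizes lacking mitochondrial and dominant genes, no filter, a minimum of 10 counts per library, fits to the compared groups alone, the replicate block, each library left out, and thresholds on the fold. None of 66 library pairs held identical counts. A gene that the naming rule picked from a fixed list is not reported here.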

Additional observations from a re-analysis of the deposited data

Results flagged for a closer look

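The MG132 response differed between neurites and somas for *Ssb* by 1.34 and for *Pnn* by 1.32 on the log2 scale when the replicate number was a block in the edgeR model (edgeR adjusted p = 0.00390 and 0.00517), whereas without the block the edgeR adjusted p was 0.328 for both.

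*Hnrnpa2b1*, *Hnrnpk* and *Hnrnpu* were lower with MG132 in somas and higher in neurites in each of the 3 same-numbered pairs, with differences of 0.79, 0.76 and 0.39. The test of these differences did not pass the threshold (edgeR adjusted p = 0.426, 0.620 and 0.777, and with the block 0.0502, 0.261 and 0.466). These genes were flagged because all their pairs pointed this way, so that agreement is not separate evidence. The share of all tested genes with the same pattern was not counted. For *Hnrnpk* the pairs were unequal, at 1.74, 0.43 and 0.23.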

How the results depend on the processing

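No other call among the members than those given in the report changed with the replicate block, which in MG132 neurites against MG132 somas moved the lower count to 2, in the MG132 response of neurites the lower count to 1, and in the response difference the higher count to 2. With the block, 11.7%, 18.1% and 0.331% of all genes were called in these directions. On total counts without TMM factors, 4 members were called higher in somas and 11 in neurites, and 0 higher and 4 lower in neurites against somas in either treatment, with medians of -0.34 in Ctrl and -0.32 in MG132 and a *Hnrnpa2b1* ratio of -0.30 in Ctrl. With at least 10 counts in every library, the lower count was 1 in somas and 1 in neurites and the soma median 0.37. In that fit 17.2% of all genes were lower in somas and 19.4% in neurites. DESeq2 size factors and DESeq2 each gave 1 lower member in neurites, where 13.0% and 14.7% of all genes were lower. Fits to the compared groups alone gave 1 lower member in Ctrl, where 4.11% of all genes were. At an adjusted p under 0.01 and over 1.7-fold, 9 members were higher in somas, 6 higher and 1 lower in Ctrl neurites and 0 lower in MG132 neurites. Past a log2 change of 1.7 instead, 1 member was called in the neurite response and 0 in the soma response and in both comparisons of fractions. The share of all genes past that threshold was not counted. The response difference had 3 members higher by DESeq2 (0.777% of genes) and 2 without a filter (0.0437% of genes). The median difference of the members was 0.37 with library sizes lacking mitochondrial and dominant genes and 0.38 without a filter.

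With each library left out in turn, 10 to 15 members were higher in somas (median 0.37 to 0.49), 18 to 22 in neurites (0.59 to 0.79), 5 to 12 in Ctrl neurites against somas with 1 to 2 lower (0.18 to 0.33), and 15 to 18 with 1 lower in MG132 (0.40 to 0.61). Over all genes tested in these fits, 11.3% to 13.3% were higher in somas and 11.6% to 15.5% in neurites. In neurites against somas, 6.47% to 9.21% were higher and 2.93% to 4.16% lower in Ctrl. In MG132 the shares were 8.04% to 10.6% higher and 2.50% to 5.10% lower. The lowest counts of members came without Ctrl soma replicate 1 (10 in somas, and 6 in Ctrl neurites) and without Ctrl soma replicate 3 (5 in Ctrl neurites). The median response difference ranged from 0.14 to 0.41 with 0 called. Of 589 values of single members under an alternative, 548 kept direction and side of the threshold, 33 lost a call, 21 of them on total counts, 7 gained one and 1 changed direction. The causes were not tested.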
